A study of Xenopus laevis with 3 samples.

Results

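This account covers 4 membrane protein genes of the frog liver: the carrier genes slc16a6.L, slc41a3.L and slc1a5.S and the water channel gene aqp3-a. They are 4 of 11303 gene symbols with probe sets of their own, and 4 of the 220 solute carrier and aquaporin symbols on the array. The genes were chosen by their measured differences, as carriers and channels among the highest genes after pregnenolone against DMSO, so that difference is given as a description. Each gene had 1 probe set, and all 4 probe sets passed the level filter (a mean over the 3 arrays of at least 5.61 on the log2 scale).

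Liver RNA came from female African clawed frogs (Xenopus laevis) kept at 22 °C. For the pregnenolone array, 3 frogs received 50 mg/kg of this steroid precursor by injection into the body cavity on each of 2 days in a row. For the artemisinin array, 3 frogs received 200 mg/kg of this antimalarial compound in the same way. For the DMSO array, an unstated number of frogs received the solvent alone, which both compounds were dissolved in. Livers were taken 24 h after the last injection, and the RNA of each group was pooled and read on 1 Affymetrix array. The study looked for target genes of xlCAR, the frog counterpart of a nuclear receptor that senses foreign compounds and steroids. With 1 array of pooled RNA per group no difference has a replicate check, and no p-value is given. Pooling hides the spread between frogs, and each value still depends on the frogs in its pool. In RNA of whole tissue, more RNA per cell and more cells of a type cannot be told apart.

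Carriers and channels set what enters and leaves a liver cell. The SLC16 family holds the monocarboxylate transporters, and in zebrafish Slc16a6a lets hepatocytes release the ketone body beta-hydroxybutyrate during fasting. SLC41 proteins move magnesium ions, and in human cells SLC41A3 has been placed in the mitochondrial membrane. SLC1A5, also named ASCT2, exchanges neutral amino acids such as glutamine for one another together with sodium. AQP3 is an aquaglyceroporin, a channel that passes glycerol as well as water. In Xenopus laevis, which carries a doubled genome, many genes exist as a pair of copies, marked .L for the set of longer chromosomes and .S for the set of shorter ones.

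The 4 genes did not share a pattern over the arrays. With pregnenolone all 4 were above DMSO by at least 5.65-fold. With artemisinin slc1a5.S was as high as with pregnenolone and slc16a6.L was raised in part, while slc41a3.L (-0.35) and aqp3-a (-0.59) lay below DMSO. Over all 7478 measured genes, 1.86% were higher by 2-fold or more with pregnenolone than with DMSO and 1.39% were lower by that much. For artemisinin against DMSO these shares were 1.27% and 0.709%, and 2 of the 4 genes were at least 2-fold higher. For artemisinin against pregnenolone 1.87% of genes were higher by 2-fold or more and 1.59% lower, and 3 of the 4 genes were lower. That last direction follows in part from the choice of genes high on the pregnenolone array, and both comparisons with DMSO share the DMSO array.

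**Figure D1:**
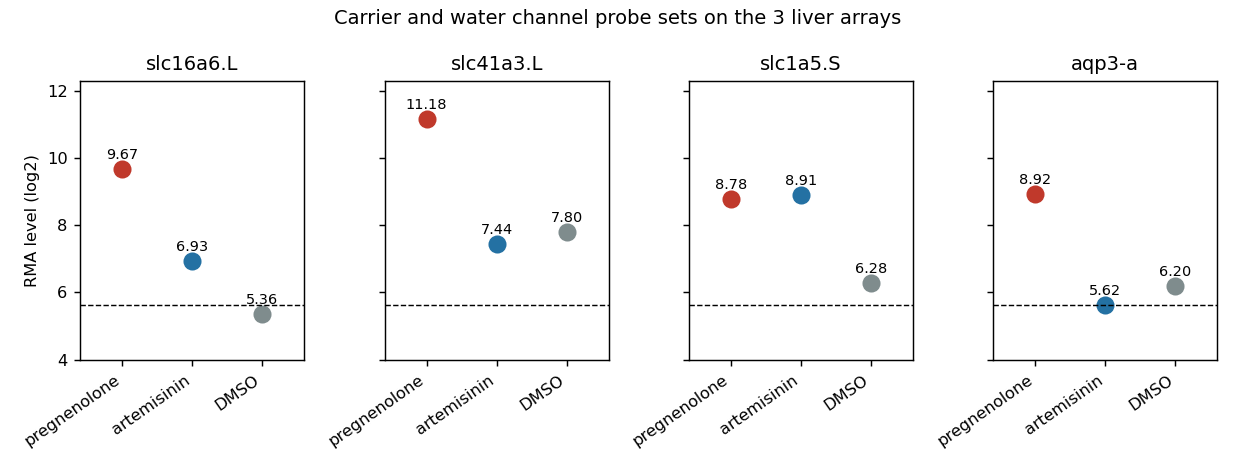
Levels of the 4 probe sets on the log2 RMA scale (vertical axis), with 1 point for each array of pooled liver RNA in the order pregnenolone, artemisinin, DMSO, and the level filter of 5.61 as a dashed line. Only slc1a5.S had an artemisinin point (8.91) level with its pregnenolone point (8.78), and only the DMSO point of slc16a6.L (5.36) lay under the dashed line.

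The monocarboxylate carrier gene slc16a6.L (Entrez gene 379999) stood at 9.67 on the log2 scale with pregnenolone and at 6.93 with artemisinin, against 5.36 with DMSO. The pregnenolone level was 19.9-fold above DMSO (log2 difference 4.31), in place 2 among the 7478 genes. The artemisinin level was 2.98-fold above DMSO (log2 difference 1.57), in place 32. Between the compounds the artemisinin level was 6.68-fold below the pregnenolone level (log2 difference -2.74). The 3 levels were thus well apart, with artemisinin between the others. The DMSO value, at the 45.5th percentile of its array, was under the level filter. Both folds over DMSO therefore hinge on how background was handled, while the fold between the compounds does not use the DMSO array.

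The magnesium carrier gene slc41a3.L (443900) had a log2 level of 11.18 with pregnenolone and 7.44 with artemisinin, against 7.80 with DMSO. Its pregnenolone value lay at the 97.8th percentile of the array and was 10.4-fold above DMSO (log2 difference 3.38). Its DMSO value was at the 81.1st percentile, well clear of the level filter. With artemisinin the gene differed from DMSO by -0.35, which is 1.58 times the SD of 0.223 that separated probe sets of the same gene in that comparison. That SD covers the spread between probe sets only and leaves out frogs and arrays. Between the compounds slc41a3.L was 13.3-fold lower with artemisinin than with pregnenolone (log2 difference -3.73), in place 2 from the bottom of all genes.

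The amino acid exchanger gene slc1a5.S (444522) was high on both treated arrays, at 8.78 with pregnenolone and 8.91 with artemisinin, against 6.28 with DMSO. It was 5.65-fold above DMSO with pregnenolone (log2 difference 2.5) and 6.17-fold with artemisinin (2.62). It took place 11 of all genes in the pregnenolone comparison and place 9 in the artemisinin comparison. The treated arrays differed by 0.13, or 0.473 times the SD between probe sets of a gene (0.268 for this comparison), so they could not be told apart on that measure. The doses of the compounds differed, and the shared DMSO array enters both folds.

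The water channel gene aqp3-a (398098) stood at 8.92 with pregnenolone and 5.62 with artemisinin, against 6.20 with DMSO. The pregnenolone level was 6.59-fold above DMSO (log2 difference 2.72), in place 8 of all genes. With artemisinin the difference from DMSO was -0.59, just past 1.5-fold lower, and the artemisinin value was at the 50.0th percentile, at the level filter itself. The difference was 2.62 times the SD between probe sets of a gene, and 2.98% of genes were at least 1.5-fold lower in that comparison. Between the compounds aqp3-a was 9.89-fold lower with artemisinin (log2 difference -3.31), in place 3 from the bottom, next to slc41a3.L.

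The identity of aqp3-a is less certain than that of the others. Its Entrez identifier was not among those of the RefSeq gene table, where the name aqp3-a is a synonym of both aqp3.L and aqp3.S. The name of its probe set ends in _a_at, which on these arrays marks probes shared by several transcripts of a gene.

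Other copies of the genes were measured only in part. The probe set of aqp3.L was at 3.89 with pregnenolone and 4.66 with artemisinin, against 3.89 with DMSO, all below the level filter. A probe set this dim says little of that gene, and whether aqp3.L is the other copy or the gene measured as aqp3-a is unsettled. The copy slc1a5.L (Entrez gene 100036798) had 3 probe sets. The brightest stood at 6.37 with pregnenolone and 5.90 with artemisinin, against 5.50 with DMSO, differences of 0.86 and 0.39. The next stood at 6.43 and 5.88, against 4.88, differences of 1.55 and 1.0. The dimmest was at 4.19 on all 3 arrays. On the 2 probe sets that passed the filter slc1a5.L was thus above DMSO with both compounds, by less than slc1a5.S. On these probe sets slc1a5.L was nearer to DMSO with artemisinin than with pregnenolone, unlike slc1a5.S. Their DMSO values were under the filter, which they passed through their treated values, so the filter favours a difference there. Probes for one copy may bind the other, so the split between copies is uncertain. The copies slc16a6.S, slc41a3.S and aqp3.S had no probe set under a symbol of their own.

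**Figure D2:**
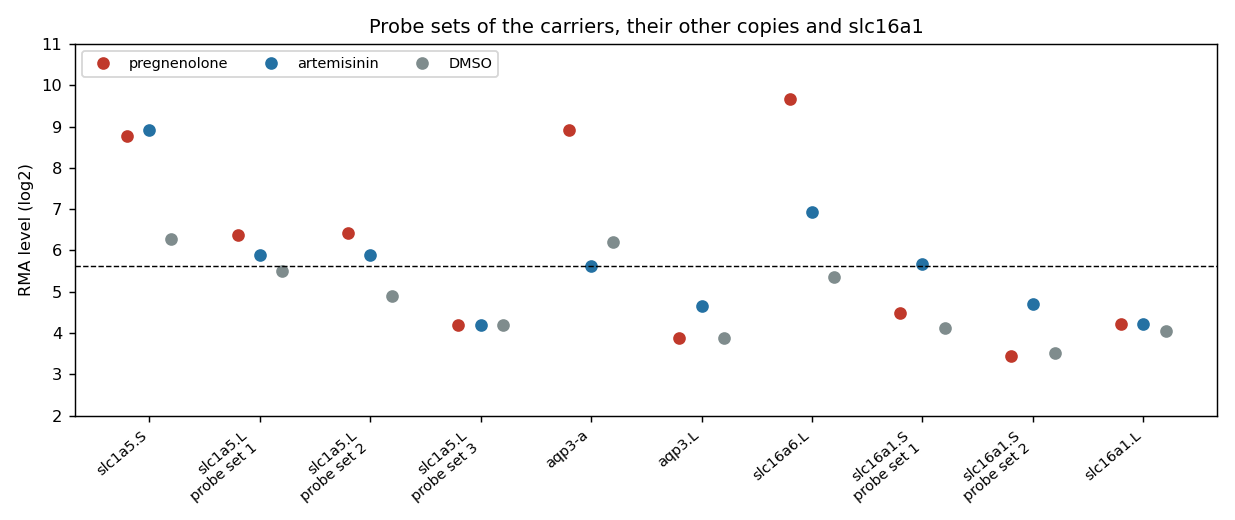
Log2 RMA levels (vertical axis) of each probe set of slc1a5, aqp3, slc16a6 and slc16a1 copies, with pregnenolone, artemisinin and DMSO points from left to right within a probe set and the level filter of 5.61 dashed. The aqp3.L and slc16a1.L points all lay below the line, and both slc16a1.S probe sets had their highest point with artemisinin.

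The genes were then placed among the measured genes whose symbol begins with slc and a digit or with aqp. The set leaves out carriers under other names, such as the lipid transporter gene mfsd2a.L. Its pregnenolone difference of 3.16 was above those of aqp3-a and slc1a5.S. The set also takes in some genes only named after a carrier, such as slc9a3r1.L. Of the 147 genes of this set that passed the filter, slc16a6.L, slc41a3.L, aqp3-a and slc1a5.S filled places 1 to 4 with pregnenolone, which restates how they were chosen. The last of them, slc1a5.S, was at 2.5, and the next gene of the set, slc7a8.S, at 1.43. It was followed by slc7a8.L (1.27), slc17a9.L (1.21) and slc66a2.1.L (1.09), and these 4 were the other genes of the set at least 2-fold higher, 2.80% of 143. Over all genes that share was 1.86%. Both slc13a2.S (-1.56), of a family of dicarboxylate carriers, and the fatty acid carrier gene slc27a2.L (-1.26) were at least 2-fold lower. They were 1.40% of the 143, beside 1.39% of all genes. Counts this small do not set the other genes of the set apart. These carriers outside the group were named after their values were seen. The median difference of the 143 was 0.11, against 0.00 over all genes.

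With artemisinin the order of the same 147 genes was another. The amino acid exchanger slc1a5.S came first, then the glucose transporter gene slc2a3.L at 1.81, then slc16a6.L. These were the 3 of the 147 at least 2-fold above DMSO, beside 1.27% of all genes. Without the 4 genes it was 1 of 143, or 0.699%. In contrast slc41a3.L was in place 12 from the bottom and aqp3-a in place 4 from the bottom. Between the compounds slc41a3.L, aqp3-a and slc16a6.L were the 3 lowest of the 147 with artemisinin, and slc1a5.S was in place 31 from the top.

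**Figure D3:**
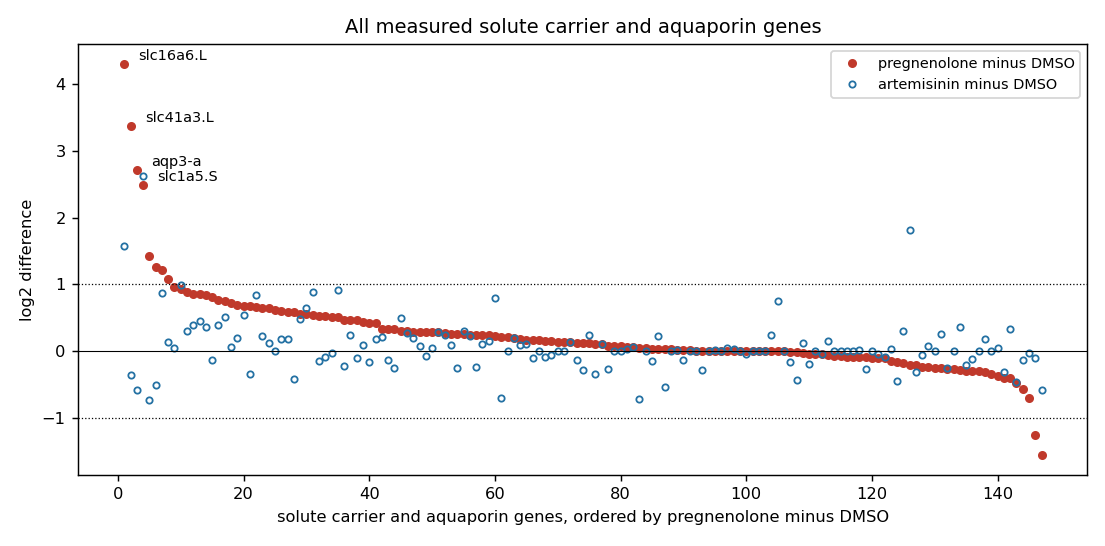
Log2 differences from the DMSO array (vertical axis) for the 147 genes with slc or aqp symbols, ordered by the pregnenolone difference (horizontal axis), with filled points for pregnenolone and open points for artemisinin and dotted lines at 2-fold. The 4 labelled genes lay between 2.5 and 4.31 with pregnenolone, and the open point next to slc1a5.S is its own artemisinin difference of 2.62.

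The monocarboxylate carrier family around slc16a6.L was mostly dim. Of its 9 listed genes on the array, partners included, 4 passed the filter. The carrier slc16a13.L differed from DMSO by 0.56 with pregnenolone and by 0.48 with artemisinin. The basigin copies bsg.L and bsg.S, whose protein in mammals escorts SLC16A1 and SLC16A3 to the membrane, were at -0.52 and -0.22 with pregnenolone and at 0.36 and 0.05 with artemisinin. Without slc16a6.L none of these 3 was 1.5-fold different from DMSO, while bsg.L was 0.88 higher with artemisinin than with pregnenolone. Over all genes 6.22% were at least 1.5-fold higher than DMSO with pregnenolone and 5.03% lower, and 3.0% and 2.98% with artemisinin. A count of none among 3 genes does not set them apart. Below the filter, 2 probe sets of the lactate carrier gene slc16a1.S were at 0.37 and -0.07 with pregnenolone and at 1.54 and 1.19 with artemisinin.

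Genes of ketone body metabolism, the route whose product the zebrafish Slc16a6a exports, showed few differences. Of 10 measured, 1 was higher with pregnenolone by 1.5-fold or more and 1 lower, and the median was 0.08. In this comparison 6.22% of all genes were higher by that fold and 5.03% lower. The higher gene was ppara.L (0.78), a receptor that governs fatty acid use, and its copy ppara.S was at 0.03. The lower gene was pdk4.S (-0.64), a kinase that restrains pyruvate use, and pdk4.L was at 0.02. With artemisinin none was at least 1.5-fold higher and pdk4.S was lower (-1.14), beside 3.0% and 2.98% of all genes. The carnitine carrier gene slc25a20.L was 0.60 lower with artemisinin than with pregnenolone.

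Other magnesium transport genes lay near DMSO. Of the 7 others measured, 0 were 1.5-fold different in any of the 3 comparisons. Their median was 0.15 with pregnenolone and 0.01 with artemisinin. Over all genes 6.22% were higher by that fold with pregnenolone and 5.03% lower, and 3.0% and 2.98% with artemisinin. Between the compounds 4.97% were higher and 6.53% lower, so 0 of 7 does not set these genes apart. The furthest with pregnenolone was nipal3.S at 0.42. The MAGT1 gene magt1.L, for a protein of the plasma membrane and endoplasmic reticulum, was bright and flat, at 11.62 with pregnenolone and 11.69 with artemisinin, against 11.68 with DMSO. The family member slc41a2.L was at 5.45 on all 3 arrays, below the filter.

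Around slc1a5.S, further genes of neutral amino acid transport were higher with pregnenolone. Of 14 measured genes besides slc1a5.S, 6 were higher by 1.5-fold or more and 0 lower, beside 6.22% and 5.03% of all genes, and their median was 0.38. With slc1a5.S and with the genes below the level filter, 7 of 24 were higher and the median was 0.12, against 0.42 for the 15 that passed. The light chain gene slc7a8, for the exchanger LAT2, was higher in both copies, with slc7a8.S at 11.18 and slc7a8.L at 10.83, against 9.75 and 9.56 with DMSO. Its partner slc3a2, the heavy chain that brings such exchangers to the surface, was higher too, at 0.86 for slc3a2.S and 0.76 for slc3a2.L. The sodium-coupled carrier slc38a5.S (0.59) and slc1a5.L made up the 6. Both copies of slc7a8 and of slc3a2 count here, so the 6 are not 6 separate genes. The slc1a5.L probe set passed the level filter through its treated values, and its probes may bind slc1a5.S. Of the other 8, slc38a2.L was at 0.42, slc7a7.L at 0.33 and slc3a1.L at -0.56.

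With artemisinin 0 of the same 14 genes were at least 1.5-fold higher and 1 was lower, slc7a8.S at -0.73. The median was -0.03. Over all genes 3.0% were higher and 2.98% lower by that fold. The slc3a2.S and slc3a2.L genes were at 0.45 and 0.39. The copy slc1a5.L counts here through its brightest probe set, at 0.39, while its next probe set was at 1.0. Between the compounds, artemisinin minus pregnenolone, slc7a8.S differed by -2.16 and slc7a8.L by -1.78. In that comparison 6.53% of all genes were at least 1.5-fold lower and 4.97% higher.

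Of the genes that make and use glutamine, which SLC1A5 carries, 2 of 10 were higher with pregnenolone by 1.5-fold or more and 1 lower, beside 6.22% and 5.03% of all genes, and the median was -0.10. The glutamine synthetase copy glul.L was at 10.17 with pregnenolone and 9.13 with artemisinin, against 8.68 with DMSO, a difference of 1.5 with pregnenolone. Its copy glul.S differed by 0.16. The hexosamine pathway gene gfpt1.S was at 0.60, and glud1.S, for glutamate dehydrogenase, at -0.80. With artemisinin glul.L differed from DMSO by 0.45 and got2.L, a transaminase gene, was lower at -0.71.

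The amino acid response, in which ATF4 switches on genes of amino acid supply, includes SLC1A5 among its targets in mammals. Of 17 measured genes of that list 4 were higher with pregnenolone by 1.5-fold or more and 2 lower, beside 6.22% and 5.03% of all genes, and the median was 0.36. The higher ones were slc3a2.S, mthfd2.L (0.85), slc3a2.L and sesn2.L (0.66), and the lower ones pck2.L (-0.93) and nupr1.L (-0.91). Both slc3a2 copies also belong to the neutral amino acid transport list and were counted there. Of the higher genes, sesn2.L passed the level filter only through its pregnenolone value, which favours a difference. Its brighter copy sesn2.S was at -0.19 with pregnenolone, and 0.43 higher with artemisinin than with pregnenolone. With all 20 listed genes on the array counted, 4 were higher and 2 lower. The gene for the regulator itself, atf4.L, was at 0.58, just short of 1.5-fold. With artemisinin 1 of 17 was higher, atf3.L at 1.16, and 1 lower, nupr1.L at -0.76, beside 3.0% and 2.98% of all genes. The median was 0.07. Between the compounds 5 of the 17 were lower with artemisinin than with pregnenolone, beside 6.53% of all genes. They were mthfd2.L (-0.95), psat1.L (-0.82), phgdh.S (-0.78) and shmt2.L (-0.68) of serine and folate metabolism and the stress gene sesn2.L (-0.68). The higher ones were pck2.L (1.29) and atf3.L (0.80), beside 4.97% of all genes. The listed genes asns, trib3, chac1 and slc7a11 had no probe set under a symbol of their own. The part of this response in the slc1a5.S values was not tested.

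Other aquaporin genes lay near DMSO with pregnenolone. Of 4 others measured 0 were 1.5-fold different with pregnenolone, beside 6.22% of all genes higher and 5.03% lower. A count of 0 of 4 does not set these genes apart. The 4 were aqp1.L at 0.21, aqp1.S at 0.15, aqp12a.S at 0.04 and aqp11.L at -0.07. The listed aquaporins aqp7 and aqp9 had no probe set under a symbol of their own. With artemisinin aqp1.L was at -0.70, close to the -0.59 of aqp3-a. AQP1 is a water channel of red blood cells and vessel walls in mammals, and 6 of 15 erythrocyte markers were also lower by 1.5-fold or more on the artemisinin array than on the DMSO array, beside 2.98% of all genes, with a median of -0.52. Of the same markers nt5c3a.L was higher (1.21), and the bright globin genes hba1.S and hbg1.L were at -0.05 and -0.03. The part of blood in these values was not tested. Of 12 genes of glycerol handling 0 were 1.5-fold higher and 1 lower with pregnenolone, beside 6.22% and 5.03% of all genes. The lower one was the glycerol kinase gene gk.S at -0.87, and the list median was -0.17. With artemisinin gk.S was at 0.37, and 0 of 12 were 1.5-fold different from DMSO, beside 3.0% of all genes higher and 2.98% lower. Counts this small do not set the glycerol list apart. Between the compounds gk.S was 1.23 and dgat2.L, for an enzyme of triglyceride synthesis, 0.75 higher with artemisinin than with pregnenolone.

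**Figure D4:**
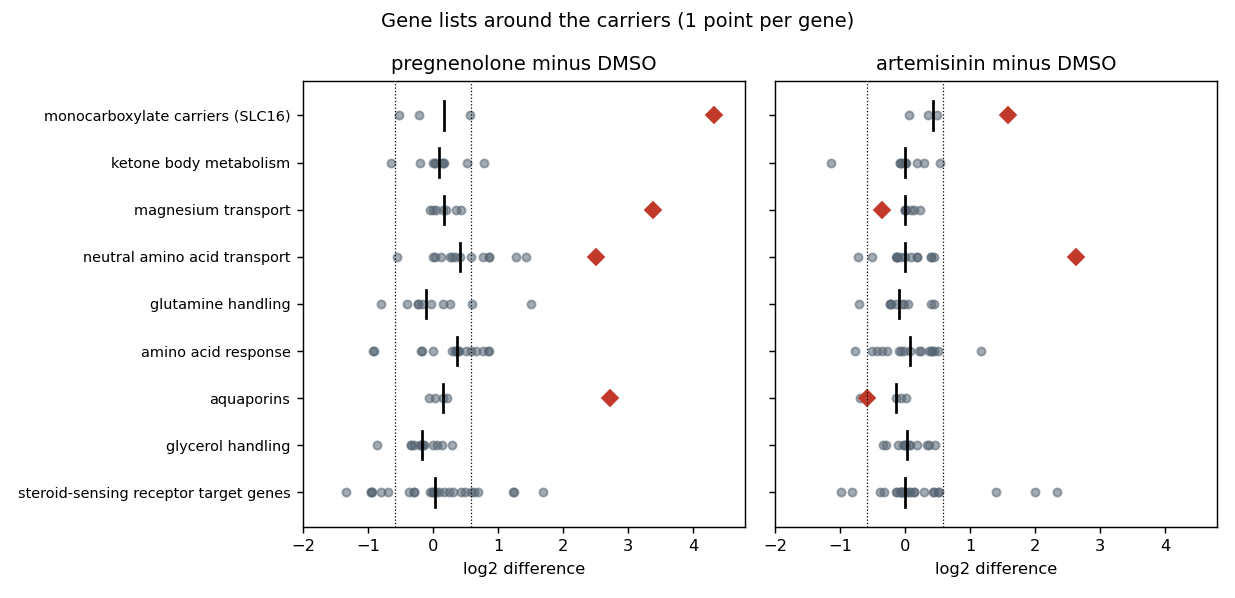
Log2 differences from DMSO (horizontal axis) with pregnenolone in the left panel and artemisinin in the right one, with 1 point per measured gene of each list, diamonds for the 4 carriers and channel, vertical bars for list medians and dotted lines at 1.5-fold. Apart from the diamonds, the neutral amino acid transport row had 6 points beyond the right dotted line with pregnenolone and 0 with artemisinin.

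Genes named after those that respond to steroid-sensing receptors in mammals differed in both directions. The list takes in the receptor gene nr1i2 and several numbered frog copies of cyp2a6, cyp2c8 and cyp3a4. Whether each frog copy responds to such receptors was not tested. Of 26 measured, 5 were higher with pregnenolone by 1.5-fold or more and 6 lower, beside 6.22% and 5.03% of all genes, and their median was 0.03. The higher ones were cyp2a6.1.S (1.70), alas1.L (1.24), nr1i2.S (1.23), alas1.S (0.69) and cyp3a4.2.L (0.63). The lower ones were cyp2a6.3.L (-1.34), cyp2a6.1.L (-0.95), gsta1.L (-0.95), cyp2a6.9.L (-0.94), dusp1.L (-0.81) and abcb1.L (-0.69). With artemisinin 3 were higher, alas1.S (2.34), alas1.L (2.0) and tat.S (1.40), and 2 lower, cyp2a6.3.L (-0.99) and tsc22d3.L (-0.81), beside 3.0% and 2.98% of all genes. With artemisinin cyp2a6.1.S was at -0.07. The alas1 copies, like slc1a5.S, were above DMSO with both compounds.

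For each member, the genes with the nearest pair of differences from DMSO were found by Euclidean distance. The 2 differences rest on 3 arrays. Provisional symbols, such as LOC or MGC names, were left out, so nearest means nearest among the other measured genes. For slc41a3.L the nearest was aqp3-a, at a distance of 0.70, followed by mfsd2a.L (0.89), a lipid transporter gene, apoa1.L (0.90), an apolipoprotein gene, and acsl4.S (0.98), whose enzyme primes long fatty acids for use. For aqp3-a they were apoa1.L (0.51), tent5a.L (0.62), slc41a3.L (0.70) and acat2.L (0.81), an enzyme of cholesterol synthesis. All these stood at least 1.93 above DMSO with pregnenolone and between -0.59 and 0.53 from it with artemisinin. For slc1a5.S the nearest was the kinase gene pim3.L (0.38), then the cobalamin carrier gene tcn2.L (0.73), the mitochondrial gene higd1a.L (0.75) and the glutathione transferase gene gstp1.L (0.76), which were high with both compounds. The genes nearest to slc16a6.L lay farther off, with acsl4.S at 1.16, then tcn2.L (1.53), mfsd2a.L (1.57) and sftpc.S (1.63). Part of this likeness is shared by construction, since every difference uses the same DMSO array.

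**Figure D5:**
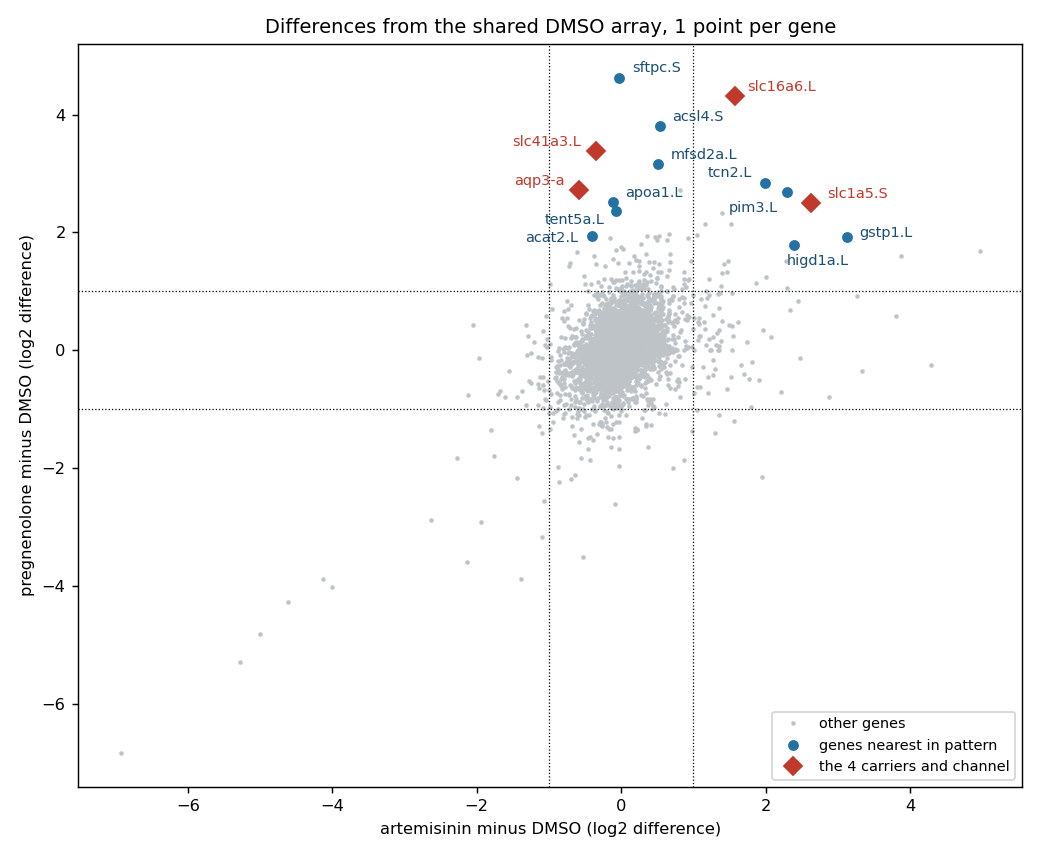
Log2 difference of artemisinin from DMSO (horizontal axis) and of pregnenolone from DMSO (vertical axis), with 1 point for each of 7478 genes, diamonds for the 4 carriers and channel, blue points for their nearest genes and dotted lines at 2-fold. The diamonds of slc41a3.L and aqp3-a stand at the upper left with artemisinin differences of -0.35 and -0.59, and slc1a5.S stands at the upper right at 2.62.

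Neighbouring genes on the chromosome were taken by order in the RefSeq gene table of assembly Xenopus_laevis_v10.1. Of the 18 protein-coding genes that flank slc16a6.L, slc41a3.L and slc1a5.S, 3 on each side, 7 were measured. Most of the 7 flank slc41a3.L, and for slc1a5.S only ap2s1.S was measured. The differences of the 7 from DMSO ran from -0.65 to 0.44 with pregnenolone. The carriers were chosen as high in that comparison, so neighbours closer to DMSO follow largely from the choice. With artemisinin the differences of the 7 ran from -0.13 to 1.0, the highest being txnrd3.L, a thioredoxin reductase gene near slc41a3.L. The lowest with pregnenolone, aldh1l1.L, a folate enzyme gene, lies next to slc41a3.L. No order was read for aqp3-a, since its place in the table is unsettled.

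The arrays had medians of 5.61 with pregnenolone and 5.62 with artemisinin, against 5.62 with DMSO. Of 24 listed hepatocyte markers 23 passed the filter, with median levels of 13.06 with pregnenolone and 13.25 with artemisinin, against 13.34 with DMSO. Of the 23, 1 was at least 1.5-fold higher with pregnenolone (apoa1.L, 2.51) and 4 lower, the lowest being ttr.L (-1.86). With artemisinin 2 were higher and 0 lower. The shares of all genes were 6.22% and 5.03% with pregnenolone, and 3.0% and 2.98% with artemisinin. Genes of the exocrine pancreas set the DMSO array apart. Several of them passed the level filter only through their high DMSO values, so the filter favours a difference. Of all 28 on the array, 13 were lower by 1.5-fold or more with each compound, with an unfiltered median of -0.45 for both. The 9 that passed had linear sums of 498 with pregnenolone and 592 with artemisinin, against 9090 with DMSO. Of 14 smooth muscle markers on the array, 5 were lower with each compound, with unfiltered medians of -0.30 with pregnenolone and -0.45 with artemisinin. The 8 that passed, of which tagln.S did so only through its DMSO value, had linear sums of 1916 and 1714, against 3543 with DMSO. Over the 7478 genes that passed the filter, 5.03% were lower by that fold with pregnenolone and 2.98% with artemisinin. The counts among the 28 and the 14 also take in genes below the filter, so these shares are not fully alike. The part of these cells in the differences from DMSO was not tested. For skin, bladder and kidney epithelia, where AQP3 is also found in mammals, 26 of 27 markers lay below the filter, from 2.37 to 5.26 over the 3 arrays. The remaining one, ppl.L, was at 7.98 with pregnenolone and 8.03 with artemisinin, against 8.01 with DMSO.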

How the data were processed

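Liver RNA of 3 groups of frogs was measured on 3 Affymetrix arrays, 1 array of pooled RNA per group. The authors deposited log2 levels per probe set, made by robust multiarray averaging (RMA) per the submitters' processing notes. The version is not given in the sources used here. That the logarithm is to base 2 follows from how RMA is defined and from the range seen. RMA corrects background, equalises the distributions of the arrays and combines the probes of each probe set. It thereby removes differences in total message.

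Values were used as deposited. Of 32635 probe sets, 96 were controls, 15495 had 1 gene symbol in the platform annotation, 279 several and 16765 none. The Entrez identifier altered 2 symbols. Probe sets with a mean over the 3 arrays at or above the median probe set (5.61) were kept, 16270 in all, and the brightest stood for each of 7478 genes. Differences of log2 values were taken between arrays and counted at 2-fold, or 1.5-fold for lists. The SD between probe sets of a gene came from 1287 genes with several. List members were matched by symbol without the copy suffix and without a copy number after a point. Named were all members, their other copies and the 4 nearest genes of each, with provisional symbols such as LOC names left out. From the list members 1.5-fold different in any comparison, up to 6 per list and comparison were named. Other names are examples chosen after their values were seen. The members and lists were chosen with earlier results of these data known. The number of arrays limits the precision. Python 3.11.15, pandas 2.3.3 and statsmodels 0.14.6 were used, and the steps were tested on simulated data. Alternatives were scaling, a loess trend (span 0.3), other level filters, fold thresholds and probe set rules.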

Additional observations from a re-analysis of the deposited data

How the results depend on the processing

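The 4 genes had 48 recomputed differences, from median centring, quantile normalization, loess trend removal and the mean of all probe sets, in 3 comparisons. All stayed within 1 SD between probe sets of the reported value. Each gene had 1 probe set, so the mean of all probe sets returned the reported values by construction. RMA had already equalised the arrays, so centring and quantile normalization could move the values little. With pregnenolone against DMSO slc16a6.L ranged from 4.27 to 4.32 and slc1a5.S from 2.48 to 2.51, and with artemisinin against DMSO aqp3-a was at -0.59 throughout and slc41a3.L ranged from -0.37 to -0.35. Counts of probe sets moved with the threshold by its construction. At 2-fold they were 272 higher and 246 lower with pregnenolone against DMSO, 201 and 101 with artemisinin against DMSO, and 334 and 225 with artemisinin against pregnenolone. At 1.5-fold they were 892 and 801, 477 and 450, and 835 and 919. At 3-fold they were 83 and 86, 63 and 26, and 135 and 57. With the level filter at the 75th percentile they were 171 and 149, 118 and 52, and 192 and 149. The pathway lists held 104 measured genes, the 4 genes included. Of these, 31, 14 and 28 were past 1.5-fold in these comparisons, and 11, 7 and 11 past 2-fold. The 2-fold counts include 4, 2 and 3 of the 4 genes, which were chosen as high with pregnenolone. Over all genes the 2-fold shares higher and lower were 1.86% and 1.39%, 1.27% and 0.709%, and 1.87% and 1.59%. Of 96 recomputed list medians 6 moved by more than that SD, all without the level filter. Among them the median of neutral amino acid transport (slc1a5.S included) with pregnenolone was 0.12 without the filter, against 0.42 with it, as dim genes with small differences entered. No paired analysis was possible because each group is 1 array. No library could be left out for the same reason.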

Other observations

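Exactly equal values on different arrays were common in the deposited table. Of 16270 probe sets above the level filter, 2545 (15.6%) had the same value with pregnenolone and DMSO, 2779 (17.1%) with artemisinin and DMSO, and 1379 (8.48%) on all 3 arrays. Over all probe sets without the filter, 6485 (19.9%) were equal on all 3. Among them were a probe set of aqp11.L at 9.02, slc41a2.L at 5.45 and a probe set of slc1a5.L at 4.19, so a difference of 0.00 in the families of the 4 genes is often an exact tie. The 4 genes themselves had no tied values.

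The lactate carrier gene slc16a1.S had its highest value with artemisinin on both of its probe sets, at 5.66 and 4.70 with artemisinin, against 4.12 and 3.51 with DMSO, while slc16a1.L was at 4.21 with artemisinin, against 4.05 with DMSO. All but the first of these values lie below the level filter of 5.61.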
